A study of Capra hircus with 6 samples.

Results

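A microRNA (miRNA) hairpin can release a small RNA from either side of its stem, and registry entries often describe only the side that was found first. In small RNA libraries of goat longissimus dorsi muscle, 59 of the 1120 listed names (5.27%) are described here, chosen from the arms that the authors classed as new. These were sequences assigned to the p5 or p3 side of a hairpin already known to miRBase, the public miRNA registry. The class is that of the sequence, and some of these sides also had a listed registry arm, as given below. The 59 names were taken from the list of expressed miRNAs by this class. Predicted miRNAs were left out, and so were 11 families or entries: mir-378, mir-2284, mir-2285, mir-1260, mir-4454, mir-5100, mir-6236, mir-6240, mir-2887, mir-1246 and mir-4488. The 59 names stood for 55 distinct sequences. With the families and entries set aside here counted as well, the list held 125 new arms. The study compared 3 fetal libraries, from muscle at day 75 of pregnancy, with 3 libraries from animals called lambs at 1 day of age. All were Haimen goats, a breed from eastern China, and no treatment or genetic change is given. The labels do not say that the libraries came from separate animals, and each p-value below therefore reflects the spread among these 6 libraries, whether biological or technical.

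An miRNA hairpin is cut by the enzyme Drosha near its base and by Dicer near its loop, which leaves a duplex of the 5′ and 3′ arms with short overhangs at both 3′ ends. An Argonaute protein keeps a strand of this duplex, and bases 2 to 8 of that strand, the seed, pair with target messenger RNAs. The other strand is mostly degraded and is found at low levels. The loop and the stretches beside the duplex can also appear as short RNAs in sequencing libraries.

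Shown first are new arms that pair with the listed opposite arm as strongly as registry arms do and that the results below turn on, most with that opposite arm. Capitals mark the seed, and T stands for U.
bta-mir-486-p3: tCGGGTCAgctcagtaccgggc
bta-mir-664a-p3_1ss20CA: tTCGTTTActccctagcctaca
bta-miR-664a_R+1: cAGGCTGGggtgtgtgtggatgt
bta-mir-6528-p3: cCTCCTCCttccaccctggtct
bta-miR-6528_R+2: aGAGGGAAgagggaaggaggga
bta-mir-7862-p5: cACAGCTCcaggggacgccgtt
bta-miR-7862: tGGTGCTCcctggagctgagc
Prefixes name the species of the registry entry (bta cattle, chi goat, ssc pig, hsa human, mmu mouse, oga galago, cgr Chinese hamster, cja marmoset, ppy orangutan, oan platypus). R+1 or R+2 in a registry name is the usual notation for bases added at the 3′ end.

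A second set was shorter and paired poorly with the listed opposite arm. It is shown because 3 of its 4 new arms differed between the stages and the other comes from the muscle miRNA miR-1; capitals again mark the seed.
ssc-mir-503-p5_1ss2CA: cAGCACTCagccgtgccc
bta-miR-503-3p_R+1: gGAGTATTgtttctgctgcccggt
chi-mir-329b-p5: cACCCATGgtacctgaaga
chi-miR-329b-3p_R+2: aACACACCtggttaacctcttt
chi-mir-421-p5: tTCGGTGCacattgtaggc
chi-miR-421-3p: aTCAACAGacattaattgggcgc
chi-mir-1-p5: tATGGACCtgctaagctatg

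Another set is shown because the listed sequences of a hairpin overlap or repeat a registry sequence. Capitals mark the stretch shared by the end of a p5 and the start of a p3 sequence.
bta-mir-2904-2-p5_1ss5TC: cggtcggccTCGGATAGCC
bta-mir-2904-2-p3: TCGGATAGCCggtcccccgc
chi-miR-34b-5p_1ss11AG: aggcagtgtagTTAGCTGATTGT
cgr-mir-34b-p3_1ss13AC: TTAGCTGATTGTcccgcgg
In the next pair the capital is the base at which a new arm and a registry sequence differed.
oga-mir-195-p3: ccaatattTgctgtgctgctcc
chi-miR-195-3p_R+1: ccaatattGgctgtgctgctcc
In the last sequences, which belong to abundant names, the capital is the substituted base given in the name. The name ssc-mir-1285-p5 gives none, and its capitals are the seed.
ssc-mir-1285-p3_1ss24TA: caacatagcgagaccccgtctctA
ssc-mir-1285-p5: aTCGCGCCtgtgaatagc
hsa-mir-7977-p5_1ss6AG: ttcccGgccaacgcacca

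By name, the new side was p5 in 33 and p3 in 26. Only 10 names were matched to a goat entry and 14 to a cattle entry. The other 35 came from 8 further species: human 9, pig 8, mouse 5, marmoset 5, Chinese hamster 3, orangutan 3, galago 1 and platypus 1.

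A base substitution was written into 36 of the 59 names (61.0%, exact Clopper-Pearson 95% interval 47.4 to 73.5). It was present in 1 of the 10 goat names, in 7 of the 14 cattle names and in 28 of the 35 others. In all 36 names the second printed base stood in the listed sequence at the printed position, counted from 1 at the 5′ end. The first printed base is that of a reference which the files do not show. T-to-C was the most frequent kind with 9 names, followed by A-to-G with 5. The substituted base lay within the seed in 14 names and was the last base in 6.

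For 44 of the 59 names (74.6%, exact Clopper-Pearson 95% interval 61.6 to 85.0) the opposite arm of the same miRNA was listed in some form. A registry name with the opposite arm written out was present for 14 new arms, for example chi-miR-329b-3p_R+2 for chi-mir-329b-p5. For 18 new arms the registry name gave no arm, as with chi-miR-1 for chi-mir-1-p5, and was taken as the opposite one. For 12 the opposite arm was itself classed as new, and for 15 none was listed. Goat entries had an opposite arm in 9 of 10 names, cattle entries in 8 of 14 and the other species in 27 of 35.

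In 8 of the 44 names, the listed opposite arm held no sequence distinct from the new arm, near copies with up to 4 mismatches not being counted as distinct. Among them hsa-mir-7977-p5_1ss6AG carried exactly the letters and the read values of the registry-derived name hsa-miR-7977_1ss6AG. In 4 cases a sequence was listed under both a p5 and a p3 name, which took up 8 of the 59 names: cja-mir-339, the same with 1ss21AT, ssc-mir-9819 with 1ss3GC and ppy-mir-1268 with 1ss11TC. Both cja-mir-339 sequences, also where named p3, had the seed of registry names of the 5p side, such as mml-miR-339-5p_R-1_1ss22CT with 9938 mean reads. Near copies of a registry sequence, with at most 2 mismatches over at least 16 nt, were found for 11 new arms. The sequence bta-mir-299-2-p5_1ss1CT held the whole registry sequence bta-miR-299 with an added base. The arm oga-mir-195-p3 differed from chi-miR-195-3p_R+1 only by G9T, where the registry sequence has the first base and positions count from the 5′ end.

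Of the 59 new arms, 37 had a listed sequence of the opposite arm to pair with, found in 1 case only when the copy number in the name was ignored. Pairing was predicted for each, and for the 156 miRNAs of the same table whose 5p and 3p arms were both registry names. Those registry pairs had a median minimum free energy of -21.5 kcal/mol (range -30.6 to -5.2), a more negative value meaning stronger pairing, and 100 of them (64.1%) left 1 to 3 unpaired bases at both 3′ ends. Energies of -15.4 kcal/mol or below, reached by all but the weakest-pairing 5% of registry pairs, are called the registry range here.

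The new arms fell on both sides of that limit. Within the registry range were 19 of 37, with a median of -21.9 kcal/mol and a median length of 22 nt. Of these 19, 16 were 21 nt or longer, 14 left 1 to 3 bases at both 3′ ends, and 12 had a goat or cattle name. The strongest pairings were those of bta-mir-299-2-p5_1ss1CT (-33.9 kcal/mol), bta-mir-486-p3 (-33.4 kcal/mol), bta-mir-7862-p5 (-32.2 kcal/mol) and oga-mir-195-p3 (-28.3 kcal/mol). The arm nearest to the limit on the inner side was cgr-mir-3535-p3_2 (-15.7 kcal/mol). Nearest on the outer side were ssc-mir-4332-p3_1ss11CA and ssc-mir-4332-p5_1ss1TC (-14.9 kcal/mol). Names of the same hairpin side could fall in both classes. The overlapping cgr-mir-3535-p3_1, with the same read values, lay outside (-11.9 kcal/mol), and ssc-mir-4332-p5_1ss7TC lay within (-16.1 kcal/mol).

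The other 18 paired more weakly, with a median of -10.8 kcal/mol and a median length of 19 nt. Only ssc-mir-1285-p3_1ss24TA among them was 21 nt or longer, and none left 1 to 3 bases at both 3′ ends. Shorter sequences can form fewer pairs, so energy and length are not separate observations. The weakest were oan-mir-150-p5_1ss4CT (-2.8 kcal/mol), chi-mir-1-p5 (-3.6 kcal/mol), chi-mir-421-p5 (-5.1 kcal/mol) and chi-mir-329b-p5 (-6.4 kcal/mol), so goat names were among them too. In 5 of the 37, the end of a p5 sequence was the start of a p3 sequence over 7 nt or more: both arms of mir-2904-2 (10 nt), cgr-mir-34b-p3_1ss13AC (12 nt) and a pair of mir-1268 names (7 nt). None of the 156 registry pairs shared so long an end, the most being 6 nt. Hairpin sequences were not used here, so the place of these sequences within a hairpin was not tested.

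**Figure D1:**
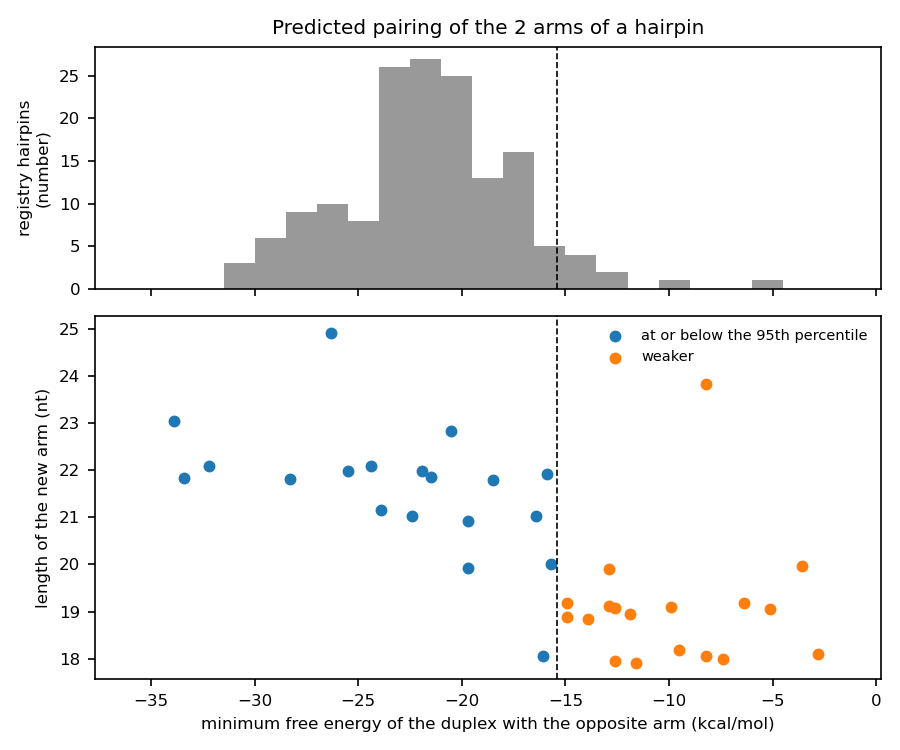
Predicted pairing energy of the arms of a hairpin in kcal/mol (x axis, stronger to the left). The upper panel counts the 156 registry pairs; each point below is 1 of the 37 new arms at its length in nt (moved slightly so that points do not hide each other), and the dashed line is the limit of the registry range. The 18 weaker new arms lie at 18 to 20 nt with the exception of 1 of 24 nt.

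Over all 59 names the median length was 20 nt, and 29 (49.2%) were 18 or 19 nt long, against 68 of 827 registry-derived names (8.22%). The median share of G and C was 63.6% in the new arms and 50% in the registry-derived names. A T at the first base, common in miRNAs bound by Argonaute, was found in 20 of the 59 (33.9%) and in 36.2% of the 827. A registry-derived name with the same seed was listed for 15 new arms. The remaining 44 had none, among them bta-mir-486-p3, ssc-mir-503-p5_1ss2CA, chi-mir-329b-p5 and chi-mir-1-p5.

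The libraries held 6096009 to 13756954 listed reads. Skeletal muscle miRNAs were detected for 7 of 7 markers, with a summed level of 65035 to 77751 CPM (reads per 1000000 reads of the scaled library size) in fetuses and 245738 to 340751 in lambs. Most of that sum in lambs was miR-133a, at 30581 to 38131 CPM in fetuses and 167526 to 232113 in lambs, and miR-499 went the other way, at 490 to 767 and 241 to 339. Markers of other cell types also had different ranges at the stages. Summed white blood cell markers (4 of 4 detected) were at 182 to 209 CPM in fetuses and 553 to 1062 in lambs. In that list miR-150 (39.8 to 60.0 CPM in fetuses, 473 to 1003 in lambs) and miR-223 (1.14 to 3.50 and 4.65 to 12.2) had the higher range in lambs, and miR-155 (118 to 163 and 53.2 to 73.6) and miR-142 (3.48 to 3.59 and 0.742 to 2.99) the lower. Red blood cell markers (2 of 2) were at 120 to 248 and 61.2 to 115, the endothelial miR-126 at 1681 to 2205 and 3427 to 3562, and fibroblast and smooth muscle markers (4 of 4) at 37504 to 46006 and 19845 to 29994. In the last list miR-199a (26779 to 33269 CPM in fetuses, 8218 to 17043 in lambs) and miR-214 (4004 to 6424 and 1245 to 1772) had the lower range in lambs, and miR-143 (3936 to 6025 and 7828 to 8405) and miR-145 (1662 to 1921 and 2495 to 3217) the higher. Neuronal markers (2 of 2, with miR-124 at 0 in the lambs) stayed at or below 21.8 CPM and epithelial markers (5 of 5) at or below 72.2 CPM. The part of cell composition in the results below was not tested. In bulk tissue, fewer cells of a type and less RNA per cell cannot be told apart.

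New arms were rare RNAs in this muscle. Together they made up 0.165% to 0.873% of the listed reads of a library, at 0.297% ± 0.113 for the fetuses against 0.469% ± 0.365 for the lambs (SD, n = 3; two-sided exact permutation test p = 0.7, the smallest possible being 0.1). The median name had 9.67 reads per library, against 65.7 for registry-derived names. The 5 most abundant names, from mir-1285, mir-2904-2 and mir-7977, held 91.1% of all reads of the 59. All 6 libraries contained 24 of the names (40.7%), against 56.7% of all names with values. Another 10 were listed in 1 library, always a fetal one and with at most 10 reads: bta-mir-128-2-p5, bta-mir-489-p5, bta-mir-6123-p3_1ss15AG, chi-mir-323b-p5, chi-mir-483-p5, chi-mir-1224-p3_1ss22GT, hsa-mir-1843-p3_1ss14GA, hsa-mir-3917-p3_1ss5TC, hsa-mir-12121-p5_1ss15GT and mmu-mir-1983-p5_1ss1GA. Detection in fetuses alone was seen for 13 of the 59 names and in lambs alone for none. Of all 1119 names with values, 179 were listed in fetuses alone and 87 in lambs alone, and a fetal library listed 864 to 955 names against 780 to 820 for a lamb library. A listed 0 stands for fewer than about 5 reads rather than for absence.

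Most new arms were far below the opposite arm in the registry. A level could be set beside a registry arm for 23 hairpin sides, and the new arm held a median of 2.77% of the reads of both. In 10 of the 23 it held under 1%. The arm chi-mir-1-p5 averaged 7.83 reads per library against 52122 for miR-1, and bta-mir-486-p3 averaged 250.3 against 164968 for miR-486. For chi-mir-3958-p5 the means were 87.2 and 79699 reads.

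The new arm was the higher in 5 of the 23. In 4 of these, bta-mir-664a-p3_1ss20CA, oga-mir-195-p3, bta-mir-6528-p3 and cgr-mir-34b-p3_1ss13AC, the listed opposite arm averaged 1 to 2 reads. A registry arm of the same side was also listed for oga-mir-195-p3 (chi-miR-195-3p_R+1, 178 reads) and for cgr-mir-34b-p3_1ss13AC (chi-miR-34b-3p, 81.2 reads). Mean reads were 82.5 for bta-mir-664a-p3_1ss20CA against 2 for bta-miR-664a_R+1, and 10.5 for bta-mir-6528-p3 against 1 for bta-miR-6528_R+2. Among the 15 sides with at least 5 reads on average on both arms, only bta-mir-299-2-p5_1ss1CT was higher, with 82.6 reads against 51. Its opposite arm is the shortened bta-miR-299-2_L-1R-2, while the 3p sequence named without the copy number, cja-miR-299_R+2, averaged 17752 reads. The side bta-mir-7862-p5 was close to equal, with 65.8 reads against 72.

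**Figure D2:**
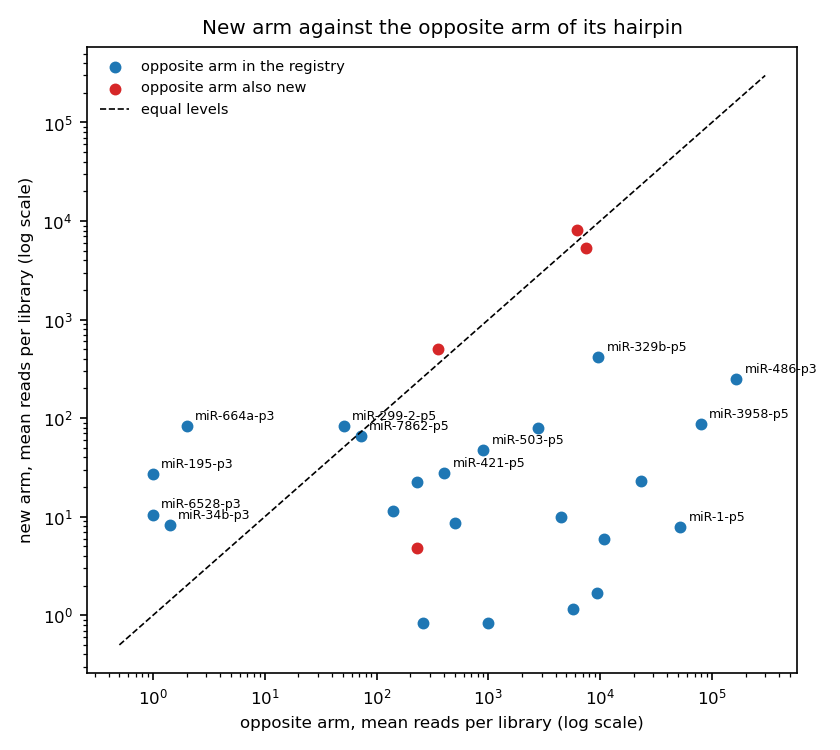
Mean reads per library of new arms (y axis) against the opposite arm of the same hairpin (x axis), both on log scales; blue points are the 23 sides with a registry arm, red points the 4 hairpins with new names on both sides, and the dashed line marks equal levels. Points above the line at the left are the 4 arms whose opposite arm averaged 1 to 2 reads.

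Both sides were new in mir-1285, mir-2904-2, mir-4332 and mir-1268. The p3 name held 56.6% of the reads of both in mir-1285, 41.4% in mir-2904-2, 58.8% in mir-4332 and 2.06% in mir-1268.

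Between the stages, 39 of the 59 new arms had the mean of 5 reads needed for the test, 10 of them through 1 stage only. At an adjusted p under 0.05, 9 of the 39 differed (23.1%), while 40.2% of the 814 miRNAs tested in the same fit did so (edgeR quasi-likelihood test, Benjamini-Hochberg adjustment over all 814). Without lamb library 3 the count was 15, with 8 higher and 7 lower in lambs: the same 9, both arms of mir-2904-2, ssc-mir-4332-p3_1ss11CA, oan-mir-150-p5_1ss4CT, bta-mir-7862-p5 and chi-mir-660-p3. Those 15 were of 41 tested (36.6%), and over all miRNAs that fit called 360 of 816 (44.1%). Higher in lambs were 4, from 3 hairpins, where the background was 13.1%. Lower in lambs were 5, where the background was 27%. Of these 5, 4 passed the filter on reads through the fetal libraries alone (ssc-mir-503-p5_1ss2CA, chi-mir-421-p5, bta-mir-6528-p3 and mmu-mir-8112-p5_1ss22GT), so they had to be higher there, and their count supports nothing on the new arms as a group. The median log2 difference, lamb over fetus, was 0.92 over the 39 and -0.23 over all 814, and the median of all 814 moved to 0.04 with the authors' scaling and to -0.52 with equal totals per library. Of all calls, 32.7% were higher in lambs, against 43.6% with the authors' scaling, 43.9% with DESeq2 and 20.2% with equal totals. New arms had fewer reads than registry-derived names (median 9.67 and 65.7 per library). With a mean of at least 20 reads required, 8 of 27 new arms were called, against 278 of 625 miRNAs. Some of the 39 names carried equal values, among them those of mmu-mir-6239-p3 and of cgr-mir-3535-p3. The part of depth in the lower share of calls was not tested.

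Among the arms called, the largest rise was in bta-mir-486-p3, from the opposite side of miR-486, an miRNA abundant in muscle and in developing red blood cells. It had 135, 84 and 82 reads in the fetuses and 517, 297 and 387 in the lambs. Every lamb library was above every fetal one, also in CPM, at 53.9 ± 9.73 CPM against 8.48 ± 0.745 (SD, n = 3). The log2 difference was 2.67 (SE 0.25, edgeR adjusted p = 0.000473), a 6.35-fold rise. The abundant arm moved the same way, with a log2 difference of 2.03 for bta-miR-486_R+1 (SE 0.20, edgeR adjusted p = 0.000658). Levels of the red blood cell markers miR-451 and miR-144 were lower in lambs, and whether blood content had a part in the rise was not tested.

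The arm bta-mir-664a-p3_1ss20CA, from a hairpin that in humans lies within a small nucleolar RNA gene, had 50, 57 and 49 reads in fetuses and 102, 125 and 112 in lambs. The groups did not overlap in CPM, with 4.58 ± 1.01 CPM and 15.96 ± 5.55 CPM (SD, n = 3), a log2 difference of 1.80 (SE 0.36, edgeR adjusted p = 0.00896). Its opposite arm was listed in lamb library 3 alone, with 12 reads.

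The other rise was in a pair of mmu-mir-6239-p3 names that carried equal values, so they count as 1 observation. Each had 31, 41.5 and 41 reads in fetuses and 65, 82.5 and 49.5 in lambs. The lamb values were above the fetal ones, with a log2 difference of 1.47 (SE 0.48, edgeR adjusted p = 0.0473). That call was lost without each of 5 libraries, all but lamb library 3, with an adjusted p of 0.139 without fetal library 1 and 0.0737 without lamb library 1, and it was lost with equal totals (0.0957).

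The arms that fell were led by ssc-mir-503-p5_1ss2CA, from miR-503, a member of the miR-424 and miR-503 cluster known for limiting cell cycle genes. It had 124, 88 and 72 reads in the fetuses and was listed at 0 in all 3 lambs. With up to 5 reads allowed in each lamb library, it was at least 12.03-fold lower in lambs (edgeR adjusted p = 0.000957). The main registry arm of the same side, bta-miR-503-5p_R+3, fell by 4.52 on the log2 scale (SE 0.59, edgeR adjusted p = 0.00185). The opposite arm bta-miR-503-3p_R+1 fell by 1.87 (SE 0.22, edgeR adjusted p = 0.00113).

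The arm chi-mir-329b-p5, from the imprinted DLK1-DIO3 locus whose miRNAs are known from fetal tissues, had 1004, 1154 and 286 reads in fetuses. In lambs it had 22, 39 and 8. The groups were far apart, although fetal library 3 was well below the other fetuses. It fell by 4.30 on the log2 scale (SE 0.83, edgeR adjusted p = 0.00774), a 19.7-fold difference. The registry arm chi-miR-329b-3p_R+2 had a log2 difference of -0.45 that did not pass the test (SE 0.18, edgeR adjusted p = 0.0940).

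Fetal library 3 was also the lowest fetus for chi-mir-421-p5, with 64, 78 and 20 reads in fetuses and 0, 0 and 5 in lambs. It fell by 4.34 on the log2 scale (SE 1.12, edgeR adjusted p = 0.0209). Lamb library 3 held its only lamb reads, and without it the lambs were at 0 and the fitted log2 difference of -8.48 depends on the prior count. The call was lost without fetal library 1 (0.0609) and without fetal library 2 (0.0867). The registry arm chi-miR-421-3p fell by 1.73 (SE 0.23, edgeR adjusted p = 0.00191).

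Low fetal arms with no listed lamb reads completed this group, both tested only because of their fetal reads. The arm bta-mir-6528-p3 had 25, 20 and 18 reads in fetuses, at least 2.67-fold lower in lambs (edgeR adjusted p = 0.00687). The arm mmu-mir-8112-p5_1ss22GT, with no opposite arm listed, had 29, 16 and 13, at least 2.46-fold lower (edgeR adjusted p = 0.00876).

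**Figure D3:**
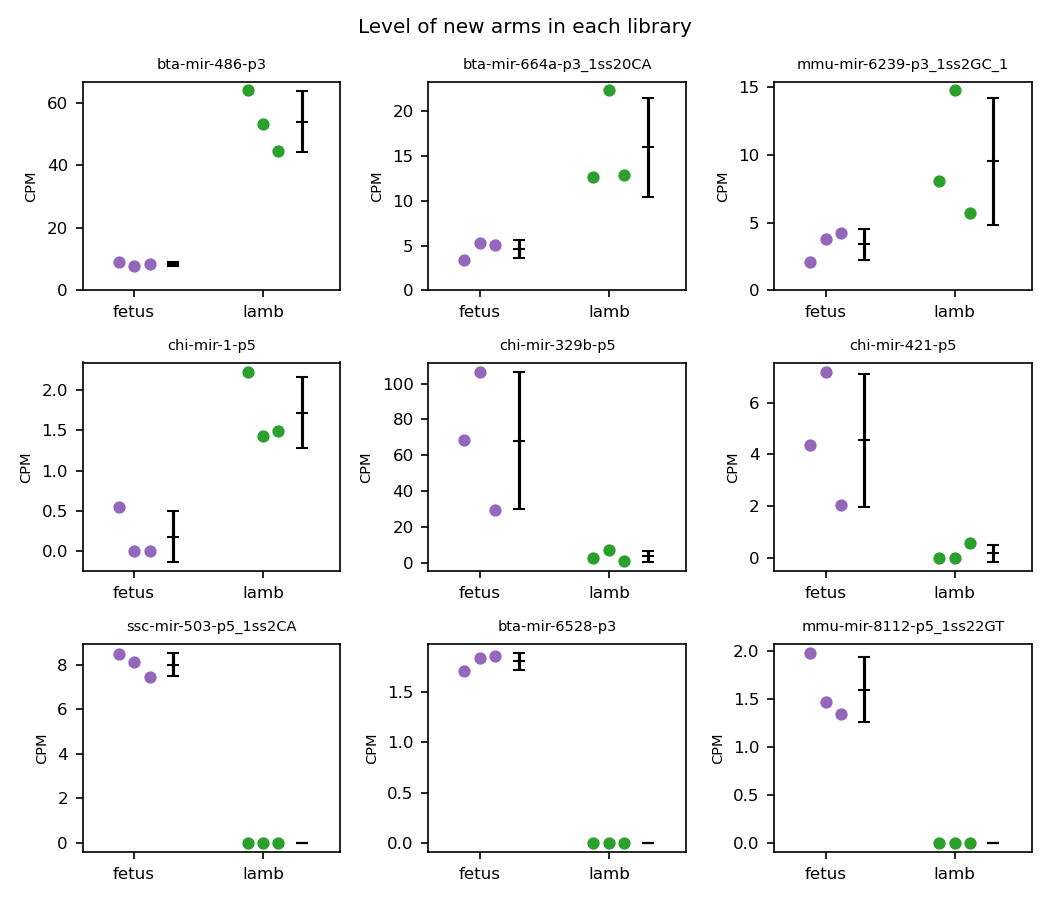
CPM (y axis) of 9 new arms in the 3 fetal and 3 lamb libraries, each point 1 library, with the mean and SD beside them. The panels show the called arms and chi-mir-1-p5, which did not pass the test, and mmu-mir-6239-p3_1ss2GC_1 stands for both names of equal value. In every panel the lamb points lie wholly above or wholly below the fetal points. Such groups were seen in 13 of the 39 tested new arms (33.3%) and in 454 of all 814 miRNAs (55.8%). The miR-503, miR-421, miR-6528, miR-8112 and miR-1 arms passed the filter on reads through 1 stage only.

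Of the 30 tested arms that were not called, 22 had a log2 difference above 0 and 4 had groups that did not overlap in CPM. Of all tested miRNAs that were not called, 253 (52.0%) had a difference above 0 and 129 (26.5%) had such groups. The name chi-mir-1-p5, which paired weakly with chi-miR-1 (-3.6 kcal/mol), had 8, 0 and 0 reads in fetuses and 18, 8 and 13 in lambs. Its log2 difference was 3.02 (SE 1.21, edgeR adjusted p = 0.0948). The 8 reads of fetal library 1 were the only fetal ones, and without that library the edgeR adjusted p was 0.0197. The fitted log2 difference of 6.90 was then against fetuses at 0 and depends on the prior count. The abundant registry sequence chi-miR-1 rose by 2.64 on the log2 scale (SE 0.41, edgeR adjusted p = 0.00331). For oga-mir-195-p3, with 20, 9 and 0 reads in fetuses and 72, 17 and 45 in lambs, the log2 difference was 2.90 (SE 0.99, edgeR adjusted p = 0.0575). It passed without fetal library 3 (0.0444) and without lamb library 2 (0.0408). The registry sequence from which it differs by G9T, chi-miR-195-3p_R+1, rose by 2.84 (SE 0.30, edgeR adjusted p = 0.000815).

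The arm bta-mir-7862-p5 had 135, 69 and 124 reads in fetuses and 20, 5 and 42 in lambs, and its log2 difference of -1.76 did not pass (SE 0.61, edgeR adjusted p = 0.0597; 0.0222 without lamb library 3). Its opposite arm bta-miR-7862 fell by 2.03 (SE 0.48, edgeR adjusted p = 0.0155). The last of the 4, bta-mir-7865-p3_1ss21GT, was at 12.4, 16.2 and 14.1 CPM in fetuses and 11.01, 4.47 and 8.75 in lambs, with a log2 difference of -0.81 (SE 0.38, edgeR adjusted p = 0.136).

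For some new arms the listed opposite arm had a difference of the other sign. The arm chi-mir-502a-p5 had 91, 0 and 28 reads in fetuses and 10, 0 and 5 in lambs (log2 difference -2.25, SE 1.53, edgeR adjusted p = 0.271), while chi-miR-502a_1ss11AG rose by 1.28 (SE 0.22, edgeR adjusted p = 0.00459). The arm cja-mir-126-p5_1ss15AG, from the endothelial miR-126, had 33, 33 and 22 reads in fetuses and 14, 14 and 23 in lambs. Its log2 difference was -0.14 (SE 0.39, edgeR adjusted p = 0.794), while chi-miR-126-3p_R+1 rose by 0.86 (SE 0.14, edgeR adjusted p = 0.00355). The registry arm of the same side, chi-miR-126-5p_R-1, averaged 991 reads and rose by 1.47 (SE 0.23, edgeR adjusted p = 0.00345). The ratio of cja-mir-126-p5_1ss15AG to the 3p arm had a log2 difference of -1.02 between the stages that did not pass the test (SE 0.27, limma adjusted p = 0.0511). The arm chi-miR-126-5p_R-1 was not part of that ratio.

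By origin, 2 new arms belonged to the striated muscle list, bta-mir-486-p3 and chi-mir-1-p5, of which the first rose. From the list of myogenic differentiation came ssc-mir-503-p5_1ss2CA, which fell. The DLK1-DIO3 locus gave 4: chi-mir-329b-p5 fell, bta-mir-299-2-p5_1ss1CT (log2 difference -0.31, edgeR adjusted p = 0.436) and chi-mir-3958-p5 (0.23, edgeR adjusted p = 0.546) did not pass the test, and chi-mir-323b-p5 had 7 reads in fetal library 3 alone. The let-7 family and the miR-17-92 family gave none, and 52 new arms came from none of these lists.

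Whether the new arm changed relative to the opposite arm was tested as the log2 ratio of the arms within each library. The test covered 151 pairs of listed arms (limma, Benjamini-Hochberg adjustment, pseudocount 1). The hairpins of miR-126, miR-339 and miR-503 entered in more than 1 pair, with the new arm and with the registry arm of that side. Among 18 pairs with a new arm, 2 ratios differed between the stages, against 18.5% of all 151 pairs. The ratio of miR-329b-p5 to its 3p arm fell by 3.99 on the log2 scale (SE 0.79, limma adjusted p = 0.0203). It lost the call without fetal library 1 (0.0699) and without fetal library 2 (0.0771). The ratio of ssc-mir-503-p5_1ss2CA to the miR-503 3p arm fell by 4.48 (limma adjusted p = 0.000179). Its size was set by the pseudocount, since the lamb libraries were at 0. With a pseudocount of 5 the ratio fell by 2.25 and was still called. The registry 5p arm, bta-miR-503-5p_R+3, averaged 1299 reads and was not part of it. In both called pairs the new arm paired weakly with the 3p arm, at -6.4 kcal/mol for chi-mir-329b-p5 and -11.6 kcal/mol for ssc-mir-503-p5_1ss2CA. Whether they are the strands of 1 duplex was not tested.

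Other ratios moved less or varied more. That of miR-486-p3 to miR-486 was 0.65 higher in lambs (SE 0.20, limma adjusted p = 0.0583), that of miR-421-p5 had a log2 difference of -2.74 (SE 0.84, limma adjusted p = 0.0583), and that of miR-1-p5 differed by 0.48 (SE 0.52, limma adjusted p = 0.524). The ratio of miR-150-p5 to miR-150, the lymphocyte miRNA, had a log2 difference of -2.42 (SE 0.68, limma adjusted p = 0.0536), while chi-miR-150 rose by 3.83 (edgeR adjusted p = 0.000441) and oan-mir-150-p5_1ss4CT had a difference of 1.83 (edgeR adjusted p = 0.156). Without lamb library 2 the number of ratios called was 4, and without lamb library 3 it was also 4.

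None of the 10 most abundant new arms except bta-mir-486-p3 and chi-mir-329b-p5 passed the test, and lamb libraries differed widely in most of them. The most abundant, ssc-mir-1285-p3_1ss24TA, was at 480, 809 and 907 CPM in fetuses and at 1004, 1941 and 593 in lambs. For bta-mir-2904-2-p5_1ss5TC the levels were 282, 729 and 770 CPM, then 1138, 2419 and 340. Lamb library 2 was the highest and lamb library 3 the lowest lamb in both, and the groups overlapped.

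The next names also had their highest level in lamb library 2. For hsa-mir-7977-p5_1ss6AG the levels were 108, 195 and 220 CPM in fetuses and 67.2, 722 and 129 in lambs, so that lamb library 1 was its lowest library. Its log2 difference was 0.81 (SE 0.85, edgeR adjusted p = 0.470), and without lamb library 2 it was -0.76. For ssc-mir-1285-p5 the log2 difference was 0.99 (SE 0.68, edgeR adjusted p = 0.271), and for bta-mir-2904-2-p3 it was 1.33 (SE 0.69, edgeR adjusted p = 0.173). Without lamb library 3, bta-mir-2904-2-p3 passed the test at 1.77 (edgeR adjusted p = 0.0372), and without lamb library 2 it had 0.65 (edgeR adjusted p = 0.461). Without lamb library 2, ssc-mir-1285-p5 had 0.07 (edgeR adjusted p = 0.918).

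Both sides of mir-4332 gave G- and C-rich reads. The name ssc-mir-4332-p3_1ss11CA was at 16.4, 47.8 and 43.5 CPM in fetuses and 89.6, 168 and 22.8 in lambs, and ssc-mir-4332-p5_1ss1TC at 7.58, 28.7 and 34.2, then 58.2, 136.01 and 12.3. The name ppy-mir-1268-p5_1ss9GA was at 10.3, 20.1 and 25.7 CPM in fetuses and 24.99, 84.02 and 10.6 in lambs. In all 3 names lamb library 2 was again the highest library, and lamb library 3 lay within the range of the fetuses.

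Of the 19 tested new arms with at least 50 reads on average, 14 had a weak duplex or no partner sequence. In 12 of these 14, lamb library 2 was above lamb library 1 and lamb library 3 was lowest, and in 13 of 14 fetal library 1 was the lowest fetus. The level in lamb library 2 over that in lamb library 3 had a median of 7.18 (range 0.511 to 11.04). The 5 with a duplex in the registry range, bta-mir-486-p3, bta-mir-664a-p3_1ss20CA, bta-mir-299-2-p5_1ss1CT, chi-mir-3958-p5 and bta-mir-7862-p5, never showed this order, with a median ratio of 0.832 (range 0.185 to 1.74), and fetal library 1 was the lowest fetus in 1 of 5. Among all 502 names of at least 50 reads the order was seen in 101 (20.1%), with a median ratio of 0.952, and fetal library 1 was the lowest fetus in 162 (32.3%). Lamb library 2 was the shallowest, with 6096009 listed reads. Many of these names share a hairpin or carry split reads, so they are not independent, and whether such sequences come from other abundant RNAs, such as ribosomal or transfer RNA, was not tested.

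**Figure D4:**
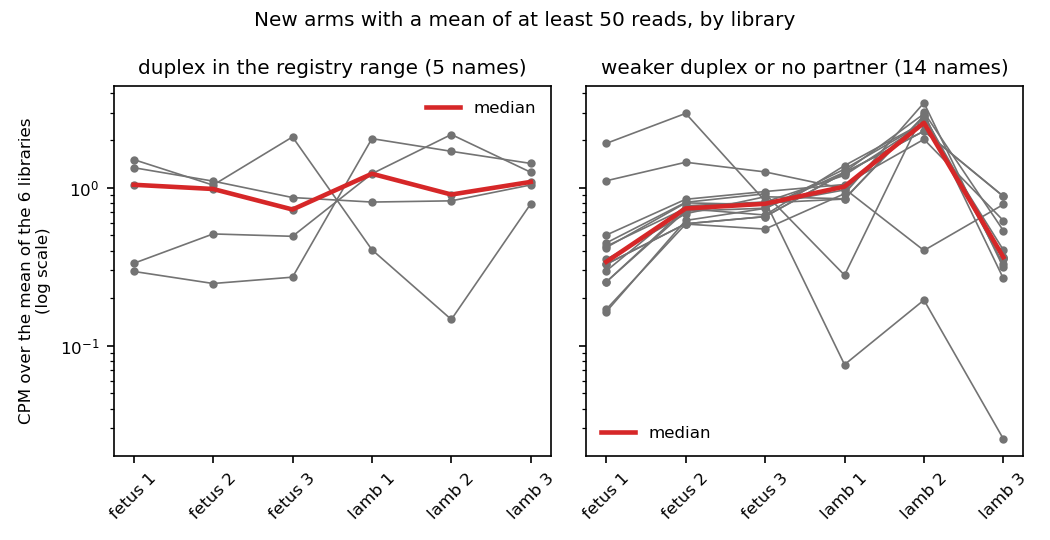
CPM of each new arm with at least 50 reads, divided by its mean over the 6 libraries (y axis, log scale), by library (x axis). Each grey line joins the values of 1 name and the red line their median; 12 of the 14 names at the right run from lamb library 2 through 1 to 3 in falling order, and none of the 5 at the left does.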

How the data were processed

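Small RNA was sequenced from 3 fetal and 3 lamb libraries made with a TruSeq small RNA kit and gel size selection, per the labels' protocols. The authors deposited estimated counts per listed name, in which reads shared by several names were split, so 11.96% of values are not whole. They also deposited normalized signal values, which equal these counts times 1 factor per library, and p-values of a t-test, which were not used. Of the 5119 values above 0, 249 were 5 and 205 were below it, so a listed 0 was read as fewer than 5 reads. Values were present for 1119 of the 1120 names, with every new arm among them. Neither aligner nor miRBase release nor goat build is given in the sources used here; mm9 is the only build in the submitters' processing notes, and no coordinates are reported.

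The class against miRBase and the names chose the new arms. The members and lists were chosen with earlier results of these data known. Counts were rounded and tested with edgeR 4.0.16 (TMM scaling, quasi-likelihood, stage only) for names with a mean of at least 5 reads, in place of the limma test planned for normalized values. Ratios of arms used limma 3.58.1 on normalized values. Depth was 6096009 to 13756954 listed reads per library. Intervals cover counting error only. Pairing was predicted with RNAduplex of ViennaRNA 2.7.2, with the most abundant listed sequence of the opposite arm that was not a near copy (at most 4 mismatches). DESeq2 1.42.0, limma, other scalings, filters and pseudocounts, a replicate block and leaving out each library were tried. Named arms were the 10 most abundant, those past an adjusted p of 0.05, those above their opposite arm, and up to 6 each of the muscle list and of names with a substitution; other arms were picked with their values known. The tests were checked on simulated data. There the main fit recovered 52.5% of 200 changes of 4-fold, and 3.67% of its calls were false. An arm that was not called may therefore still differ. Calculations used R 4.3.3 and Python 3.11.15.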

Additional observations from a re-analysis of the deposited data

How the results depend on the processing

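Of 311 alternative values for the named new arms, 273 kept direction and side of the threshold, 17 newly passed it, 19 no longer passed and 2 reversed. Without lamb library 2, hsa-mir-7977-p5_1ss6AG changed to -0.76 and ppy-mir-1268-p5_1ss9GA to -0.0077 on the log2 scale, the lowest values when a library was left out, the highest being 1.26 and 1.54; the cause was not tested. The calls of bta-mir-486-p3, bta-mir-664a-p3_1ss20CA, chi-mir-329b-p5 and ssc-mir-503-p5_1ss2CA held in all 15 alternatives. Of these, ssc-mir-503-p5_1ss2CA passed the filter on reads through the fetal libraries alone, so it had to be higher there in each. The number of new arms called, 9, was 8 to 13 under other tools, scalings, filters and pseudocounts and 6 to 15 when a library was left out. Replicate numbers do not pair the libraries (correlation of deviations over 814 miRNAs 0.15, 0.30 and -0.26); with the replicate block 5 were called, 4 of them among the 9, and in the arm ratios 3 in place of 2. With a pseudocount of 5, 5 arm ratios with a new arm were called, and 6 where both arms needed 20 reads, which tests fewer hairpins. Leaving out a library gave 1 to 4. The share called over all pairs is given for the main setting only, 18.5% of 151. The number above the opposite arm, 1, was 5 with no filter and 1 to 2 when a library was left out. The opposite arm was listed for 32 to 45 names under other definitions, and 23 to 27 names were present in every library. The planned pseudocounts were run with limma on the normalized values. Depth limits the 20 untested new arms, whose mean was under 5 reads.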
